A study of Mus musculus with 34 samples.

Results

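ATF3-only loci are places in the resting macrophage genome where the ATF3 peak list held a peak and neither the Jun nor the JunD list did. They were chosen by merging the ATF3, Jun and JunD peaks of untreated C57Bl/6EiJ macrophages wherever peaks shared at least 1 bp, and keeping the merged loci with an ATF3 peak alone. This gave 5931 ATF3-only loci of 29552 resting AP-1 loci. The other sets used here for comparison were 2182 Jun-only loci, 3257 JunD-only loci and 10558 loci with all 3 monomers, called 3-monomer loci. The presence of an ATF3 peak and the absence of Jun and JunD peaks in those 3 lists fixed the set, so neither is a result.

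The cells of every group were thioglycollate elicited macrophages (TGEMs), recruited to the peritoneum of mice by the injection, collected 3 days later and cultured. The C57Bl/6EiJ and Balb/cJ mice were males, 8 weeks old. The sex and age of the PPARgKO mice are not given in the sources used here. The cultures received Veh (PBS) or Kdo2 lipid A (KLA, a TLR4 agonist) at 100 ng/mL for 1 h. The C57Bl/6EiJ groups gave ChIP-seq lists for ATF3, Jun (cJun in the labels), JunD, JunB, Fos, Fra2, PU.1 and CEBPa with Veh and with KLA, and for PPARg with Veh. The Balb/cJ groups gave usable lists for ATF3, Jun and JunD with both treatments and for JunB and Fos with KLA, and the PPARgKO groups, whose sample titles give C57Bl6 as the strain, gave ATF3, Jun and JunD with Veh. What drives the PPARg deletion is not given in the sources used here. Each list stands for 1 condition, since the authors combined replicate experiments through the irreproducible discovery rate (IDR). No test over animals was therefore possible, and every interval below is a 95% interval that covers the counting of loci only. A difference between shares was taken as past the test where its 95% Newcombe interval left out 0.

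ATF3 is a basic leucine zipper (bZIP) protein that binds DNA as a dimer with itself or with a partner such as Jun, JunD or a C/EBP protein. Dimers of AP-1 monomers read the TRE, spelled TGASTCA with S for C or G, and the CRE-like TGASSTCA. Dimers of an ATF protein with a C/EBP protein read a composite of one part of each site, TGATGCAA, known from the promoters of genes that answer amino acid shortage through the integrated stress response. ATF3 is itself induced by that response and by TLR4, and is known in macrophages as a brake on cytokine genes.

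The sequences below were read from GRCm38 (mm10) and show the composite motif at ATF3-only loci, with 30 bases on either side. The composite motif is in capitals and each sequence is turned so that it reads TGATGCAA. The first 7 lines are the loci with the highest ATF3 counts that hold the motif and that the rule for named loci picked, and the next 5 are stress response genes with the motif within 1 kb of their start, chosen after their values were seen.
Slc39a11, chr11:113569655-113569722, + strand: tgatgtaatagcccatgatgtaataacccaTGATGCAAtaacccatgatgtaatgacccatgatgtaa
Cryzl1, chr16:91727590-91727657, - strand: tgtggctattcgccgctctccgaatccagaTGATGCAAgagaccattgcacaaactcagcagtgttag
Pycr1, chr11:120643814-120643881, - strand: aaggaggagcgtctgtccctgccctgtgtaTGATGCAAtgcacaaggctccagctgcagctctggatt
Vps53, chr11:76167166-76167233, + strand: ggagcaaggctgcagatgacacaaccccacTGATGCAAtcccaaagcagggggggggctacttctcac
Stim2, chr5:53937352-53937419, - strand: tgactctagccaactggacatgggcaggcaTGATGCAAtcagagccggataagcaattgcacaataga
Cxcr4, chr1:128513330-128513397, + strand: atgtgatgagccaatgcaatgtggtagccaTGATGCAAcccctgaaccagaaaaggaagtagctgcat
Slc1a4, chr11:20332680-20332747, + strand: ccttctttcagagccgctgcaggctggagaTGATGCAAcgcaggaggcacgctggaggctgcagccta
Shmt2, chr10:127521927-127521994, - strand: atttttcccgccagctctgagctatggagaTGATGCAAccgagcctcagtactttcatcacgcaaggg
Wars, chr12:108893486-108893553, - strand: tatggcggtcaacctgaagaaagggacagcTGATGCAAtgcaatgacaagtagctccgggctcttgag
Slc7a1, chr5:148399470-148399537, - strand: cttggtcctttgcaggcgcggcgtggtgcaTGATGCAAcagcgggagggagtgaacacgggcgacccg
Cebpg, chr7:35056163-35056230, - strand: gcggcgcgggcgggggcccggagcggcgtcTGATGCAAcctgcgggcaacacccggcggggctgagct
Psph, chr5:129778796-129778863, - strand: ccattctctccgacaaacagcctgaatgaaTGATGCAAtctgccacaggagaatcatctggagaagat

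At other ATF3-only loci the word differed from TGATGCAA by 1 base, and at others again a TRE stood in its place. Positions in the substitutions are counted from 1 at the first base of TGATGCAA, with the base of that word first. The first 4 lines below hold such a variant in capitals, C6A at the loci of Gars, Gpt2 and Mthfd2 and C6T at the locus of Plcl1. The last 3 lines hold a TRE in capitals, at the loci nearest the starts of Ptgs2, Oxsm and Plin2.
Gars, chr6:55037941-55038008, - strand: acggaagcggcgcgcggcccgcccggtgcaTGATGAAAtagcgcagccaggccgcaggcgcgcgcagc
Gpt2, chr8:85492180-85492247, + strand: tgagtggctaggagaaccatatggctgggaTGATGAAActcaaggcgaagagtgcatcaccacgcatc
Mthfd2, chr6:83317150-83317217, - strand: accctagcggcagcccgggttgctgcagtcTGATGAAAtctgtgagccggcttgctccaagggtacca
Plcl1, chr1:55413698-55413765, - strand: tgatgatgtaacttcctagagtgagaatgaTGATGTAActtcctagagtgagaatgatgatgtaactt
Ptgs2, chr1:150151498-150151564, + strand: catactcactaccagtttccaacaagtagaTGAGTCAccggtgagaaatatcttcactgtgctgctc
Oxsm, chr14:16243983-16244049, + strand: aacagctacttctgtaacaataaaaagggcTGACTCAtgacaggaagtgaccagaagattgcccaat
Plin2, chr4:86679896-86679962, + strand: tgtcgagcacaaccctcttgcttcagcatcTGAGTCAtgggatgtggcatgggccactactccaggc

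The composite motif was a feature of ATF3-only loci and of hardly any Jun-only or JunD-only locus. It lay in the central 200 bp of 584 of the 5930 ATF3-only loci with sequence, 9.85% (9.12 to 10.6), against 3.53% of all resting AP-1 loci. It lay in 9 of 2181 Jun-only loci, 0.413%, and in 5 of 3255 JunD-only loci, 0.154%. The difference was 9.4 points against Jun-only loci (8.6 to 10.2) and 9.7 points against JunD-only loci (8.9 to 10.5). The 3-monomer loci lay between, at 218 of 10556 loci or 2.07%. In windows of the same length placed 5 kb to the side of the ATF3-only loci, 29 of 5930 held the motif, 0.489%. Such windows beside Jun-only and JunD-only loci held it at 0.459% and 0.461%. The share of Jun-only loci was close to that of their windows, and the share of JunD-only loci (0.0656 to 0.359) was below it. Of the 1042 resting AP-1 loci with the composite motif, 56.0% were ATF3-only loci and 20.9% were 3-monomer loci. The sets with ATF3 and 1 partner held it too, at 84 of the 1809 loci with ATF3 and Jun and 141 of the 4829 loci with ATF3 and JunD.

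The shares with a TRE lay closer together among the sets of 1 monomer. It lay in 1006 ATF3-only loci, 17.0% (16.0 to 17.9), against 26.0% of all resting AP-1 loci, 19.9% of Jun-only loci, 14.4% of JunD-only loci and 38.1% of 3-monomer loci. The difference from Jun-only loci was -2.9 points (-4.9 to -1.0) and the difference from JunD-only loci was 2.6 points (1.0 to 4.1), and both changed with the processing. The CRE-like motif lay in 355 ATF3-only loci, 5.99%, against 7.30% of all resting AP-1 loci, and the difference from Jun-only loci of -0.4 points had an interval from -1.7 to 0.7. A C/EBP motif (TTRCRYAA, where R is a purine and Y a pyrimidine) lay in 659 ATF3-only loci, 11.1%, against 8.84% of all resting AP-1 loci and 5.50% of Jun-only loci. A PU.1 motif, ACTTCCT, lay in 1120 ATF3-only loci, 18.9%, against 21.5% of all resting AP-1 loci. All motifs were searched on both strands, and a locus could count for more than 1 of them.

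The share of ATF3-only loci was also counted for each word that differs from TGATGCAA by 1 base. Among the 24 variants with 1 base changed, the commonest at ATF3-only loci was C6A, in 396 loci or 6.68%, followed by C6T in 317 loci or 5.35% and T4G in 217 loci or 3.66%. The shares in the windows 5 kb away were 0.894%, 0.573% and 0.877%. The word with T4C was rare in the surroundings at 0.135% and lay in 127 ATF3-only loci, 2.14%. Among the words that were no commoner than nearby, A7T lay in 27 loci or 0.455% against 0.708% nearby and A8C in 25 loci or 0.422% against 0.472%. TGATGCAA together with the 3 commonest variants covered 1448 ATF3-only loci, 24.4% (23.3 to 25.5), against 10.7% of all resting AP-1 loci, 2.80% of Jun-only loci, 1.23% of JunD-only loci and 8.34% of 3-monomer loci.

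Both motifs lay near the centre of the ATF3 peak, the composite motif more tightly. The nearest composite motif was within 20 bp of the peak centre at 399 of 584 loci, 68.3%, with a median distance of 13.0 bp. The nearest TRE was within 20 bp at 497 of 1006 loci, 49.4%, with a median distance of 20.5 bp. The plot of motif positions shows both distributions.

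**Figure D1:**
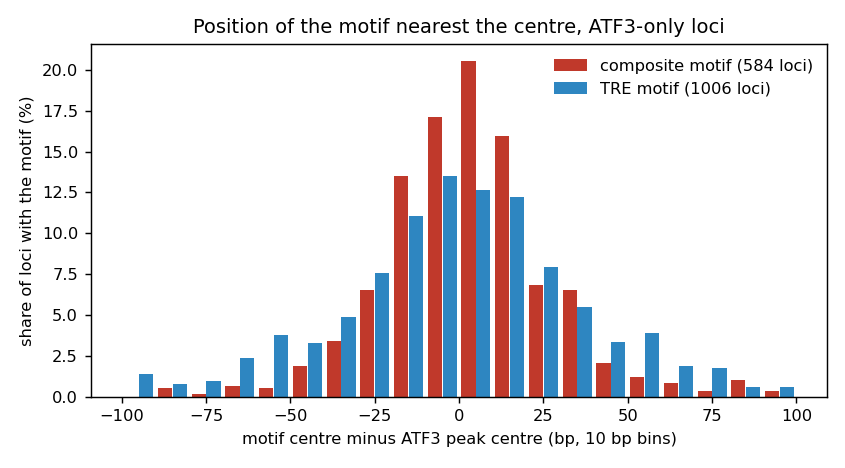
Position of the composite motif (584 loci, red) and of the TRE (1006 loci, blue) at ATF3-only loci, as the distance of the motif centre from the centre of the ATF3 peak in bp, with bars giving the share of the loci with that motif in each bin of 10 bp. Both pile up around 0, and 68.3% of the composite motifs and 49.4% of the TREs lay within 20 bp of the centre.

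ATF3-only loci were mostly weak ATF3 peaks, and this describes the set rather than testing it. They had a median ATF3 count of 39 tags (quartiles 32 and 51, range 25 to 220), which is percentile 25.2 of the ATF3 list. The 3-monomer loci had a median of 83, loci with ATF3 and JunD a median of 50 and loci with ATF3 and Jun a median of 45. The ATF3-bound loci were also cut into 4 count classes of similar size. ATF3-only loci made up 52.7% of class 1 (25 to 39 tags), 30.5% of class 2 (40 to 56), 15.0% of class 3 (57 to 88) and 3.83% of class 4 (89 to 409). At the edge of the rule, 156 ATF3-only loci had a Jun or JunD peak less than 100 bp away, with a median ATF3 count of 43. Just outside it, 30 loci were left out of the set because their ATF3 peak shared 1 to 49 bp with a Jun or JunD peak, with a median ATF3 count of 51.5. The nearest Jun or JunD peak was at a median distance of 7.82 kb, and 914 loci had it between 100 bp and 1 kb away.

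**Figure D2:**
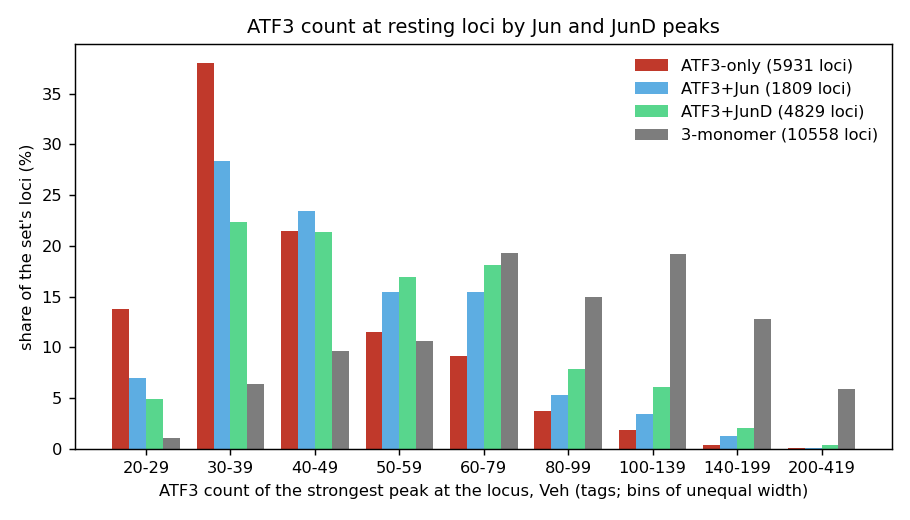
Share of loci of each set (y axis, %) by the ATF3 count of the strongest peak at the locus in Veh (x axis, tags, bins of unequal width), for ATF3-only loci, loci with ATF3 and Jun, loci with ATF3 and JunD, and 3-monomer loci. ATF3-only loci sit to the left, with a median of 39 tags against 83 for 3-monomer loci.

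CEBPa, a C/EBP protein that helps set the macrophage enhancer landscape, was found more often at ATF3-only loci than at the other sets of 1 monomer. A CEBPa Veh peak lay at 1576 of 5931 ATF3-only loci, 26.6% (25.5 to 27.7), against 32.3% of all resting AP-1 loci. The share was 12.4% at Jun-only loci and 11.4% at JunD-only loci, so ATF3-only loci were higher by 14.2 points (12.3 to 15.9) and 15.2 points (13.6 to 16.8). After KLA, 1719 ATF3-only loci had a CEBPa peak, 29.0%, against 33.5% of all resting AP-1 loci. Of those, 1042 had one with Veh too and 677 did not, and a further 534 loci had one with Veh but not after KLA. The 3-monomer loci had a CEBPa Veh peak more often, 46.7%. Within count classes the interval of the difference held 0 in classes 1, 2 and 4, with 17.7% of ATF3-only and 18.5% of 3-monomer loci in class 1 and 63.8% and 63.6% in class 4. In class 3 ATF3-only loci were higher, 44.8% against 38.1%, a difference of 6.7 points (3.0 to 10.5).

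PU.1, the lineage factor of macrophages, and PPARg, a lipid-activated nuclear receptor, were found less often at ATF3-only loci than at JunD-only and 3-monomer loci. A PU.1 Veh peak lay at 2240 ATF3-only loci, 37.8% (36.5 to 39.0), against 56.8% of all resting AP-1 loci, 60.3% of JunD-only loci and 68.3% of 3-monomer loci. The difference from JunD-only loci was -22.6 points (-24.6 to -20.5). That from Jun-only loci (40.8%) was -3.0 points (-5.4 to -0.6), which did not pass under other overlap rules. With an IDR of 0.01 it was larger, -11.9 points (-14.8 to -9.0). PU.1 after KLA lay at 2318 ATF3-only loci, 39.1%, against 59.8% of all resting AP-1 loci. A PPARg Veh peak lay at 2081 ATF3-only loci, 35.1% (33.9 to 36.3), against 58.4% of all resting AP-1 loci and 57.3% of JunD-only loci, a difference of -22.2 points (-24.3 to -20.1). The difference from Jun-only loci (33.4%) was 1.7 points with an interval from -0.6 to 4.0, and its sign changed with the processing. Unlike for CEBPa, the gap to 3-monomer loci stayed within every count class, from -24.4 to -31.4 points for PU.1 and from -28.8 to -32.7 points for PPARg.

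Many ATF3-only loci carried none of these partners. With Veh, 2025 loci (34.1%, 32.9 to 35.4) had no peak of PU.1, CEBPa or PPARg, against 17.9% of all resting AP-1 loci, 17.1% of JunD-only loci and 6.55% of 3-monomer loci. Jun-only loci were at 39.2%. CEBPa without PU.1 and PPARg was found at 602 ATF3-only loci, 10.2% (9.41 to 10.9), against 5.22% of all resting AP-1 loci, 4.35% of Jun-only, 2.12% of JunD-only and 3.51% of 3-monomer loci. All 3 partners together lay at 324 ATF3-only loci, 5.46%, against 15.4% of all resting AP-1 loci, 2.34% of Jun-only, 4.51% of JunD-only and 28.3% of 3-monomer loci.

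Partner and motif went together in different ways. The composite motif lay in 229 of the 1576 ATF3-only loci with a CEBPa Veh peak, 14.5%, and in 355 of the 4354 without, 8.15%, a difference of 6.4 points (4.5 to 8.4). The TRE went the other way, in 6.98% of loci with and 20.6% of loci without a CEBPa peak, a difference of -13.6 points (-15.3 to -11.8). The C/EBP motif lay in 25.3% of loci with and 5.99% of loci without the CEBPa peak. The PU.1 motif lay in 34.6% of loci with and 9.37% of loci without a PU.1 Veh peak.

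**Figure D3:**
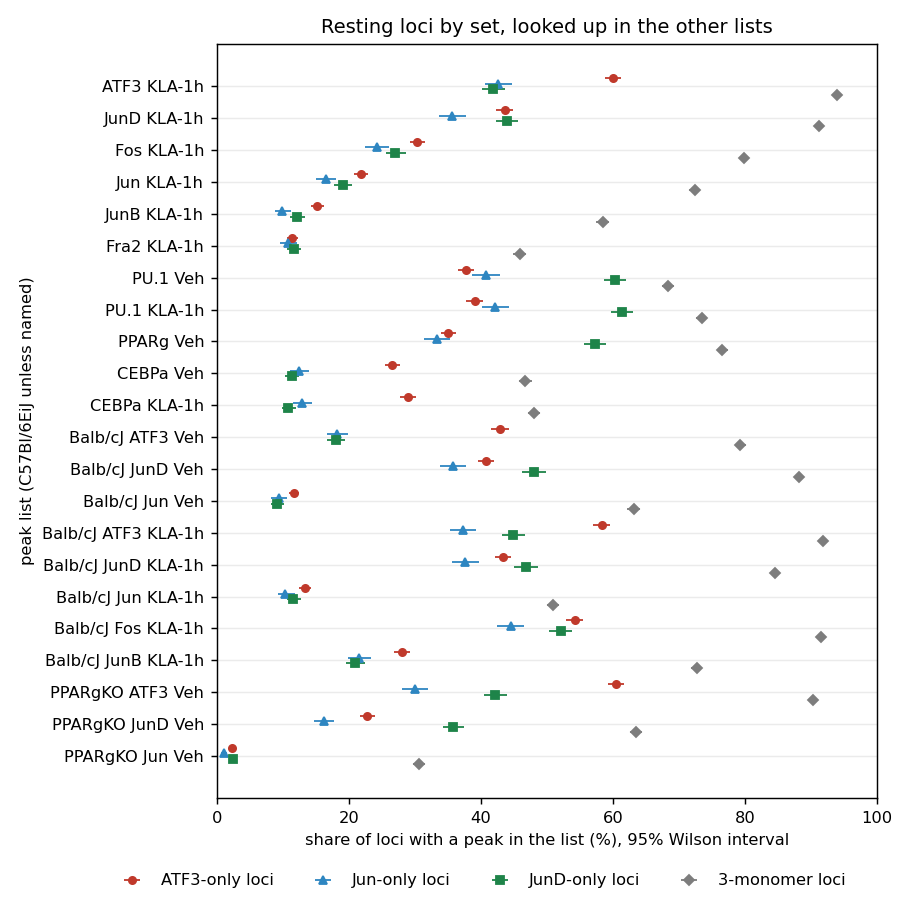
Share of ATF3-only, Jun-only, JunD-only and 3-monomer loci (x axis, %) with a peak in each other list (y axis), with 95% Wilson intervals over loci. ATF3-only loci stand above Jun-only and JunD-only loci for CEBPa (26.6% with Veh), and below JunD-only loci for PU.1 (37.8%) and PPARg (35.1%). ATF3-only loci also stand above Jun-only and JunD-only loci in the other ATF3 lists. The rule required an ATF3 Veh peak at ATF3-only loci and its absence at Jun-only and JunD-only loci. The order in the other ATF3 lists is therefore not read as a result.

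After KLA for 1 h, many of these loci were listed with AP-1 partners. The rule took loci with a Jun or JunD Veh peak out of the set, so their KLA peaks alone do not show a gain. ATF3 was still listed at 3560 ATF3-only loci after KLA, 60.0% (58.8 to 61.3), against 73.6% of all resting AP-1 loci and 94.0% of 3-monomer loci. JunD, absent by the rule with Veh, had a KLA peak at 2586 loci, 43.6%, against 67.2% of all resting AP-1 loci. JunD-only loci, which had JunD by the rule, were at 44.0%, a difference of -0.4 points (-2.6 to 1.7). Fos had a KLA peak at 1805 loci, 30.4%, against 52.8% of all resting AP-1 loci, Jun at 1294 loci, 21.8%, against 44.1%, JunB at 904 loci, 15.2%, against 33.4%, and Fra2 at 679 loci, 11.4%, against 26.8%. Jun-only loci had Jun after KLA at 16.5%, a difference of 5.3 points (3.4 to 7.2). Among Jun-only and JunD-only loci Fos was at 24.2% and 27.0%, and Fra2 at 10.8% and 11.7%. With Veh, Fos was at 89 loci, 1.50%, against 4.12% of all resting AP-1 loci, Fra2 at 128 loci, 2.16%, against 16.2%, and JunB at 8 loci, 0.135%, against 1.15%, but the Fos and JunB Veh lists held only 1804 and 463 peaks. Among the 3560 loci that kept ATF3 after KLA, 1152 still had neither Jun nor JunD, 32.4% (30.8 to 33.9), against 13.9% of all resting AP-1 loci with an ATF3 KLA peak and 4.65% of the 3-monomer loci. The difference from 3-monomer loci was 27.7 points (26.1 to 29.3). It was smaller against the other sets of 1 monomer, 6.9 points (3.6 to 10.0) against Jun-only loci at 25.5% and 9.7 points (7.0 to 12.4) against JunD-only loci at 22.6%. The JunD KLA list had the highest counts of the AP-1 lists, with a median of 277 tags per peak against 50 for JunD Veh. The part of these counts in the JunD shares was not tested.

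In Balb/cJ, the second inbred strain, ATF3 was found at 2544 ATF3-only loci with Veh, 42.9% (41.6 to 44.2), against 53.8% of all resting AP-1 loci and 79.3% of 3-monomer loci, a difference of -36.4 points (-37.9 to -35.0). With KLA the Balb/cJ ATF3 list had 3456 of them, 58.3%, against 71.7%. JunD was at 2418 ATF3-only loci in Balb/cJ with Veh, 40.8%, against 64.9% of all resting AP-1 loci, and at 2569 with KLA, 43.3%, against 63.5%. Jun was at 692 loci with Veh, 11.7%, against 33.8%, and at 788 with KLA, 13.3%, against 29.5%. Fos with KLA was at 3215 loci, 54.2%, against 72.1%, and JunB with KLA at 1664 loci, 28.1%, against 47.2%. The Balb/cJ JunD Veh list held 28652 peaks, more than the 19653 of the C57Bl/6EiJ list that defined the set.

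The lack of Jun and JunD carried over to Balb/cJ in part. Of the 2544 ATF3-only loci with a Balb/cJ ATF3 Veh peak, 1074 had neither a Jun nor a JunD peak there, 42.2% (40.3 to 44.1), against 14.9% of all resting AP-1 loci with that peak. Of 8376 3-monomer loci it was 391, 4.67%, a difference of 37.5 points (35.6 to 39.5). Jun-only loci were at 25.9% and JunD-only loci at 24.5%, with differences of 16.3 points (11.4 to 20.8) and 17.7 points (13.6 to 21.5). Most of the remainder was JunD, found at 55.3% of these 2544 loci whereas 19.4% had Jun. With KLA in Balb/cJ the corresponding numbers were 1204 of 3456 ATF3-only loci, 34.8%, against 18.7% of all resting AP-1 loci with that peak and 9.36% of 3-monomer loci.

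In PPARgKO macrophages ATF3 was found at 3589 ATF3-only loci, 60.5% (59.3 to 61.7), against 70.1% of all resting AP-1 loci and 90.3% of 3-monomer loci, a difference of -29.8 points (-31.2 to -28.4). JunD was at 1352 loci, 22.8%, against 43.3% of all resting AP-1 loci, and Jun at 133 loci, 2.24%, against 13.8%. Of the 3589 loci with ATF3, 2536 had neither Jun nor JunD, 70.7% (69.1 to 72.1), against 44.1% of all resting AP-1 loci with that peak and 27.8% of 3-monomer loci, a difference of 42.9 points (41.1 to 44.6). Jun-only loci with an ATF3 peak in PPARgKO lacked both at 72.2%, a difference of -1.6 points (-5.2 to 2.3), and JunD-only loci at 53.5%, a difference of 17.1 points (14.1 to 20.2). The knockout Jun list held 4290 peaks against 15548 in the wild type, and the part of that in the Jun shares was not tested.

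The ATF3 shares were also compared within classes of the ATF3 Veh count. In the KLA list ATF3-only loci went from 49.1% in class 1 to 88.2% in class 4, and 3-monomer loci from 72.8% to 99.0%. In Balb/cJ the range was 27.1% to 85.1% against 37.7% to 94.7%, and in PPARgKO it was 46.2% to 95.5% against 66.1% to 98.0%. ATF3-only loci were lower in every class of these 3 lists, with intervals that left out 0. The gap narrowed to -3.9 points (-7.2 to -0.7) in class 3 in Balb/cJ and to -2.5 points (-6.2 to -0.4) in class 4 in PPARgKO, while after KLA it was never smaller than -10.8 points (-15.7 to -7.2).

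**Figure D4:**
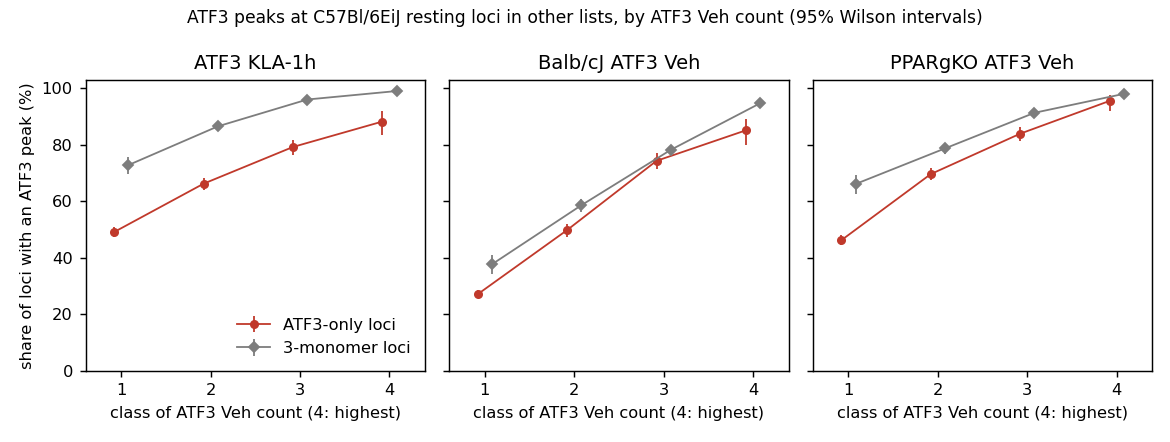
Share of ATF3-only and 3-monomer loci with an ATF3 peak (y axis, %) in the KLA-1h, Balb/cJ Veh and PPARgKO Veh lists, by class of the ATF3 Veh count among ATF3-bound loci (x axis, 4 is the highest), with 95% Wilson intervals. ATF3-only loci lie lower in every class, with gaps of -10.6, -8.8, -3.9 and -9.6 points in Balb/cJ and of -23.7, -20.3, -16.8 and -10.8 points after KLA.

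Sorting the ATF3-only loci by motif separated loci with different companions. This split was made after the values were seen, so the shares are given with their intervals and no test of their difference. The composite motif without a TRE was present at 529 loci, a TRE without the composite motif at 951, both at 55 and neither at 4395. The median ATF3 Veh count was 52 at composite loci and 38 at TRE loci. CEBPa with Veh lay at 41.0% of composite loci (36.9 to 45.3) and at 10.3% of TRE loci (8.53 to 12.4), whereas PU.1 with Veh lay at 22.3% and 22.6% of them, and at 43.2% of loci with neither motif.

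After KLA, AP-1 partners were listed at a larger share of TRE loci than of composite loci. The rule removed Jun and JunD peaks with Veh in C57Bl/6EiJ, so no gain is read from them. Fos lay at 603 of 951 TRE loci, 63.4% (60.3 to 66.4), and at 70 of 529 composite loci, 13.2% (10.6 to 16.4). JunD lay at 66.0% of TRE loci (63.0 to 69.0) and 22.7% of composite loci (19.3 to 26.4), Jun at 35.9% and 10.0%, JunB at 30.3% and 7.56%, and Fra2 at 24.9% and 5.86%. ATF3 itself was still listed at 80.5% of TRE loci (77.9 to 82.9) and 53.7% of composite loci (49.4 to 57.9). In Balb/cJ with KLA, Fos lay at 81.7% of TRE loci and 30.8% of composite loci. JunD and Jun showed this order at rest too, in lists the rule did not use. With Veh in Balb/cJ, JunD lay at 51.9% of TRE and 17.4% of composite loci, and Jun at 18.6% and 3.97%. JunD in Balb/cJ with KLA lay at 64.8% and 24.4%. In PPARgKO with Veh JunD lay at 24.4% and 11.7%.

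At rest in other mice the order for ATF3 turned round. ATF3 with Veh was found in Balb/cJ at 60.7% of composite loci (56.5 to 64.8) and 42.4% of TRE loci (39.3 to 45.5), and in PPARgKO at 73.5% and 61.2%. Within count classes these 2 gaps were small, for example 83.1% and 78.4% in class 3 in Balb/cJ, with overlapping intervals in every class in both lists. After KLA the intervals lay apart in classes 1 to 3. ATF3 was listed at 30.3% of composite loci (23.4 to 38.3) and 73.6% of TRE loci (69.7 to 77.2) in class 1 and at 71.2% and 93.7% in class 3. In class 4 it was 86.8% and 91.7%, with 68 and 24 loci and overlapping intervals. Fos after KLA stayed apart in all 4 classes, at 25.0% of composite loci (16.2 to 36.4) and 83.3% of TRE loci (64.1 to 93.3) in class 4.

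Among loci that kept ATF3, a lack of Jun and JunD elsewhere was more frequent in composite loci than in TRE loci. In Balb/cJ with Veh, 235 of the 321 composite loci with an ATF3 peak had neither Jun nor JunD, 73.2% (68.1 to 77.8), against 104 of 403 TRE loci, 25.8% (21.8 to 30.3). After KLA in C57Bl/6EiJ it was 163 of 284, 57.4% (51.6 to 63.0), against 159 of 766, 20.8%. In PPARgKO it was 85.3% against 67.7%. Loci with neither motif lay between in Balb/cJ and after KLA, at 40.2% (717 of 1782) and 33.0% (813 of 2463), and were at 68.9% (1776 of 2576) in PPARgKO, and by number they were most of the loci with ATF3 alone. Over all loci of each class, with or without ATF3 there, a JunD peak in Balb/cJ with Veh lay at 17.4% of composite loci and 51.9% of TRE loci.

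**Figure D5:**
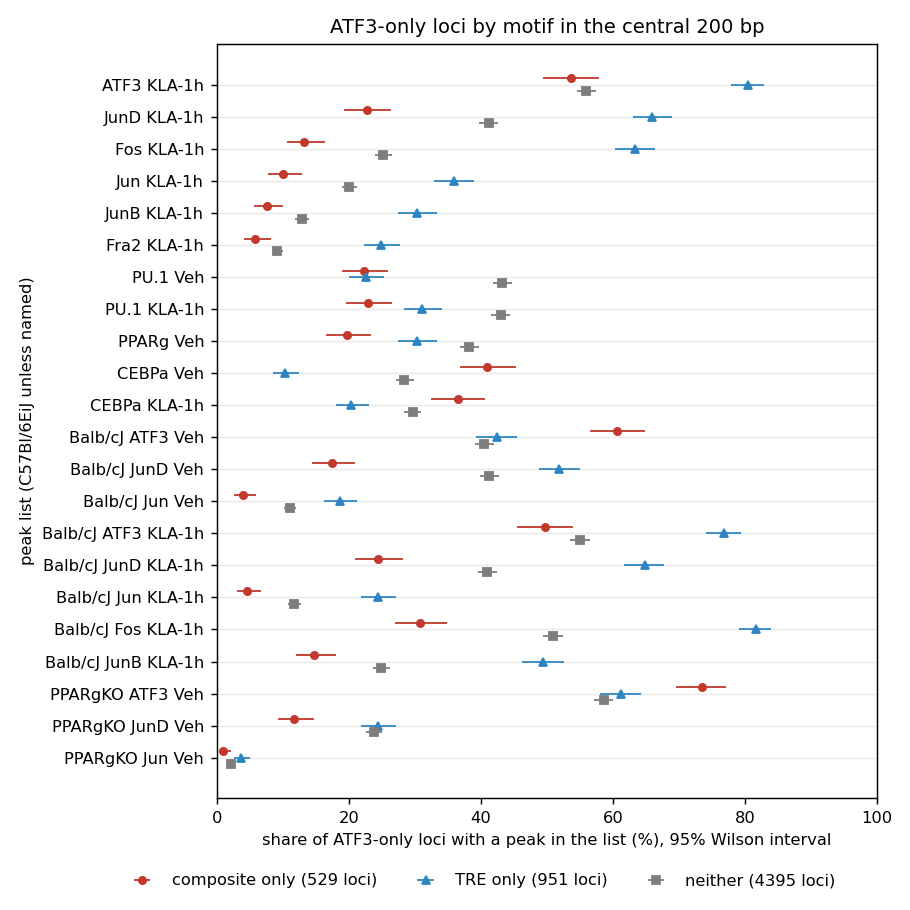
Share of ATF3-only loci (x axis, %) with a peak in each other list (y axis), for loci with the composite motif alone (529), with a TRE alone (951) and with neither (4395), with 95% Wilson intervals. TRE loci lie to the right for every AP-1 list after KLA (Fos 63.4% against 13.2% of composite loci), and composite loci for CEBPa and for ATF3 with Veh in Balb/cJ and PPARgKO.

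Few loci were ATF3-only in the strict sense across the whole series. Of the 5931 loci, 1165 (19.6%) had an ATF3 peak in all 4 other ATF3 lists and 688 (11.6%) in none of them, while 1539 (25.9%) had no Jun or JunD peak in any of the 8 other Jun and JunD lists. Both held at 75 loci, 1.26%, and 172 loci had no peak in any other list of any factor. Of the 75 loci, 39 held the composite motif, 52.0% (40.9 to 62.9), against 9.31% (8.59 to 10.1) of the other ATF3-only loci, and 44 had a CEBPa Veh peak, 58.7% (47.4 to 69.1), against 26.2% (25.1 to 27.3). A TRE was present at 8 of them, 10.7%. Their median ATF3 Veh count was 70 tags against 39. These 75 were picked on the lists after their values were seen, and the shares are a description.

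The highest counts among the 75 were at loci near Slc39a11, Pycr1 and Cxcr4. The locus at chr11:113569594-113569815 lies in an intron of Slc39a11, a zinc transporter gene, 3936 bp before the nearest start of that gene, and had the highest ATF3 Veh count of all ATF3-only loci, 220 tags. ATF3 had 160 tags there after KLA, 107 and 101 in Balb/cJ with Veh and KLA and 104 in PPARgKO, CEBPa had 106 with Veh and 136 with KLA, and no other list had a peak. Counts were not taken as scaled to library size, so they rank a locus within its list and are not compared between lists. Its printed sequence holds TGATGCAA amid repeated copies of a 1-base variant. The locus of Pycr1, the last enzyme of proline synthesis, at chr11:120643727-120643929 lies 80 bp before the start and had 167 tags for ATF3 and 105 for CEBPa with Veh. ATF3 was present there with 100 tags after KLA, 95 and 83 in Balb/cJ and 103 in PPARgKO, and CEBPa had 129 after KLA. The remaining peaks there were Fos, with 14 tags in Veh and 82 in Balb/cJ after KLA. The locus at chr1:128513261-128513466 is intergenic, 78927 bp from the start of Cxcr4, a chemokine receptor gene. It had 157 tags for ATF3, 94 for CEBPa and 130 for PU.1 with Veh, and ATF3 had 53 after KLA.

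The other loci among the 10 highest ATF3 counts were more varied. At chr16:91727498-91727711, in an intron of Cryzl1 and Atp5o, ATF3 had 203 tags and CEBPa 265 with Veh, and the KLA lists of JunD (434), Fos (63) and Jun (27) had peaks too. This locus holds the composite motif, and in Balb/cJ with Veh it had Jun (35) and JunD (84) peaks. At chr15:9864865-9865165, an intergenic locus 116 kb from the start of Spef2, ATF3 had 216 tags, and every other list but the short Veh lists of Fos, Fra2 and JunB had a peak. The locus at chr5:137152182-137152411, intergenic and 2974 bp before the mucin gene Muc3, had 201 tags with Veh and 302 with KLA for ATF3. It had no peak in any other list, ATF3 in Balb/cJ and PPARgKO included, and held a CRE-like motif.

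The TRE loci among the 10, near Ptgs2 and Bank1, had full AP-1 company after KLA, and Jun or JunD peaks at rest in other mice. At chr1:150151415-150151650, intergenic and 51501 bp from the start of Ptgs2, the inducible prostaglandin synthase, ATF3 had 192 tags with Veh and 399 with KLA, and the KLA lists gave JunD 880, Fos 165, JunB 103, Fra2 99 and Jun 86. The locus at chr3:136331161-136331370, intergenic and 5199 bp before the adaptor gene Bank1, had 189 tags for ATF3 with Veh, and JunD (527), Fos (96), Fra2 (75), Jun (40) and JunB (39) after KLA. Its TRE lay 88 bp from the centre of the ATF3 peak. With Veh the Ptgs2 locus had Jun and JunD peaks in Balb/cJ (32 and 104 tags) and in PPARgKO (23 and 71). The Bank1 locus had both in Balb/cJ (49 and 107) and JunD in PPARgKO (95). Tags are not compared between lists. Near Tlr2, the receptor for bacterial lipoproteins, the locus at chr3:83863029-83863238 is intergenic, 21366 bp before the start, and held a C/EBP motif but neither composite motif nor TRE. ATF3 had 169 tags there with Veh, CEBPa 128 and PU.1 454, and after KLA JunD had 762 and Fos 143. In other mice with Veh, JunD had peaks there in Balb/cJ (71) and PPARgKO (56), and Jun in PPARgKO (21). The remaining 2 of the 10, near Snx13 (174 tags) and near Gas6 (165 tags), a bridging ligand for uptake of dead cells, had neither motif as an exact word. Both had PU.1 Veh peaks, with 299 and 532 tags. The Gas6 locus held the T4G variant of the composite motif.

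Composite loci with CEBPa included Vps53 and Stim2. The locus at chr11:76167084-76167296 lies in an intron of Vps53, a vesicle tethering gene, and of Glod4, and had 164 tags for ATF3 and 93 for CEBPa with Veh but no peak in any Balb/cJ list. JunD (197) and Fos (40) had peaks there after KLA. The locus at chr5:53937287-53937496 is intergenic, 61108 bp before Stim2, a calcium sensor, with 162 tags for ATF3 and 219 for CEBPa. Among loci with no PU.1, CEBPa or PPARg Veh peak, Muc3 was followed by Slc30a1, a zinc exporter, whose locus at chr1:191895187-191895449 lies 11449 bp before the start in an exon of a non-coding transcript and had 122 tags. That locus holds the composite motif and had JunD (294) and Jun (20) after KLA. With Veh it had JunD (74) and Jun (21) in Balb/cJ and JunD (28) in PPARgKO. Next came Plcl1, with 118 tags in an intron at chr1:55413629-55413850. Within 1 kb of a start, Pycr1 was followed by Slc1a4, a neutral amino acid transporter, with 154 tags at chr11:20332625-20332825, 12 bp before the start. Next was Oxsm, a mitochondrial fatty acid synthesis enzyme, with 141 tags at chr14:16243924-16244153, 707 bp before the start in an intron of another transcript.

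By position, ATF3-only loci were mostly distal. Of the 5931 loci, 3365 (56.7%) lay in introns, 2125 (35.8%) were intergenic, 282 (4.75%) lay in UTRs and 88 (1.48%) in coding exons. The start of a protein-coding transcript (TSS) was within 1 kb at 953 loci, 16.1% (15.2 to 17.0), against 18% of all resting AP-1 loci and 36.4% of JunD-only loci, a difference from the latter of -20.3 points (-22.2 to -18.5). The difference was -4.7 points (-6.7 to -2.8) against Jun-only loci and 4.0 points (2.9 to 5.1) against 3-monomer loci. The median distance to a TSS was 16.2 kb. Loci with the composite motif alone were within 1 kb of a TSS at 52 of 529, 9.83%, loci with a TRE alone at 61 of 951, 6.41%, and loci with neither at 838 of 4395, 19.1%.

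The X chromosome was taken up after its values were seen, so its shares are a description. Of its 408 resting AP-1 loci 137 were ATF3-only, 33.6% (29.2 to 38.3), against 5792 of 29134 on the autosomes, 19.9%. The peak counts were lower on the X, with median ATF3 counts of 45 on the X and 56 on the autosomes, median Jun counts of 20 and 26 and median JunD counts of 40 and 50. The 3-monomer loci made up 24.3% of the X loci and 35.9% of the autosomal ones. The part of the lower counts in the share was not tested. The composite motif lay in 8.03% of the ATF3-only loci on the X and in 9.89% of those on autosomes.

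Loci were tied to the nearest protein-coding TSS within 100 kb. By this assignment 3696 genes had an ATF3-only locus, 16.9% of 21924 protein-coding genes and 41.2% of the 8966 genes with any resting AP-1 locus. Klf6, a zinc finger factor gene, had the most, 10 of its 34 resting loci, followed by Runx1 with 8 of 32. Iqsec1, Lpp, Mbnl1, Sgms1, Tbl1xr1 and Tgfbr2 had 7 each, of 16, 30, 19, 35, 12 and 12 resting loci. Over all resting AP-1 loci 5931 of 29552 were ATF3-only, and the ranking is not scaled to the resting loci of a gene. At Klf6 the counts were low, 28 to 53 tags. An ATF3-only locus with the composite motif was tied to 5.55% of the 8966 genes.

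Amino acid and integrated stress response genes had 19 members with an ATF3-only locus among 35 with any resting locus, 54.3%. Of all 8966 genes with a resting locus 41.2% had one. All 6 gene lists lay above that share, from 44.8% to 61.5%. The shares are not scaled to the number of resting loci of a gene. An ATF3-only locus with the composite motif was tied to 8 of the 35, 22.9%, against 5.55% of the 8966. Taking the strongest ATF3-only locus of each gene, 11 of the 19 (57.9%) had it within 1 kb of the TSS, against 20.5% of all 3696 genes. These were Gars, Slc3a2, Aldh18a1, Shmt2, Gpt2, Wars, Slc7a1, Cebpg, Mthfd2, Psph and Asns. Gars (glycyl-tRNA synthetase) had 108 tags at chr6:55037875-55038078, 31 bp before the start, with 119 in PPARgKO and 43 in Balb/cJ with Veh and no ATF3 peak in C57Bl/6EiJ after KLA. Slc3a2, the heavy chain of amino acid exchangers, had 99 tags at chr19:8712937-8713145 with a TRE 73 bp from the peak centre. After KLA that locus had 134 tags for ATF3 and 339 for JunD. Herpud1, an endoplasmic reticulum stress gene, had 97 tags 20.9 kb before its start, in an intron of Slc12a3. Aldh18a1, which opens proline synthesis, Shmt2, of serine and glycine metabolism, and Gpt2, an alanine transaminase, had 86, 70 and 69 tags and were among the 75 loci with ATF3 in every ATF3 list and no Jun or JunD peak in any list. Asns (asparagine synthetase) and Ddit3 (the C/EBP family member CHOP) were near the bottom of the set, with 29 and 27 tags, and the only other ATF3 peak at either was one of 20 tags at Asns in Balb/cJ after KLA. The list of genes was drawn up with earlier results of these data known, and its counts are set only beside those of all genes.

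C/EBP family and bZIP partner genes, the kin of ATF3 itself, had 24 members with an ATF3-only locus among 39 with any resting locus, 61.5%. The share of all 8966 genes with a resting locus was 41.2%. The strongest locus was at Fosb, 49 bp before the start at chr7:19309989-19310211, with 113 tags, then 82 after KLA, 90 in Balb/cJ with Veh and 79 in PPARgKO, and with 71 for CEBPa. A Jun or JunD peak lay 65 bp from it in Veh. Bach2, a bZIP repressor gene, had 100 tags 65.3 kb before the nearest start, in an intron, and Atf6, a sensor of endoplasmic reticulum stress, had 85 tags in an intron at 12.7 kb from a start.

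TLR4-induced cytokine and chemokine genes had 13 members with an ATF3-only locus among 29 with any resting locus, 44.8%. This was close to the 41.2% of all 8966 genes with a resting locus. After KLA their strongest locus kept ATF3 at 11 of 13 genes, 84.6%, and had JunD at 10 of 13, 76.9%, against 60.9% and 45.0% of all 3696 genes. At the locus 9803 bp before Il12b, which encodes a subunit of interleukins of the helper T cell axis, ATF3 had 83 tags with Veh and 348 with KLA, and after KLA JunD had 824, Fos 85, Jun 81, Fra2 76 and JunB 70. It holds the composite motif and had CEBPa, with 36 tags in Veh and 145 after KLA. Il1a had 87 tags 5994 bp before its start, also with the composite motif, and 159 with KLA, with Jun (41), JunB (35) and Fra2 (76) but no JunD or Fos in C57Bl/6EiJ. Il23a had 76 tags 886 bp before its start and 282 with KLA, with JunD at 658 and Fos at 90. Tags of different lists are not on a common scale, and the JunD KLA list had a median of 277 tags per peak.

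TLR4 feedback inhibitor genes had 14 of 27 members with an ATF3-only locus, 51.9%, against 41.2% of all 8966 genes with a resting locus. Their strongest locus kept ATF3 after KLA at 10 of the 14, 71.4%, against 60.9% of all 3696 genes. Tollip, an inhibitor of TLR signalling, had 88 tags in an intron at 1556 bp from a start and 173 with KLA, beside JunD at 433. Nfkbiz, a nuclear member of the IkB family, had 69 tags 40.2 kb away and 105 with KLA. Tnip3, of the A20-binding inhibitors, had 68 tags in an intron with the composite motif and 40 with KLA, with no Jun, JunD or Fos peak in any list.

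Phagocyte receptor genes had 17 of 33, 51.5%, against 41.2% of all 8966 genes with a resting locus. They were led by Tlr2, by Msr1, a scavenger receptor, with 75 tags, CEBPa at 105 and PU.1 at 843, and by Clec4n, a fungal lectin receptor, with 70 tags. At Clec4n a Jun or JunD peak lay 24 bp outside the ATF3 peak. None of their strongest loci held the composite motif or lay within 1 kb of a TSS. Lipid and cholesterol handling genes had 19 of 34, 55.9%, against the same 41.2%. Plin2, a lipid droplet coat protein, had 75 tags with a TRE and PPARg at 90, Mylip, which degrades the LDL receptor, had 64 tags with PPARg at 206, and Ppard, a nuclear receptor gene, had 64 tags in an intron of Def6 with no PPARg peak. The composite motif lay in the strongest locus of 2 of these 19 genes, 10.5%, against 11.1% of all 3696 genes.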

How the data were processed

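ChIP-seq peak lists were analysed. Reads were aligned by the authors with Bowtie2 (mm10, or a Balb/cJ genome shifted to its positions). Putative sites came from HOMER with the matching input, and peaks with an IDR under 0.05 between replicate experiments were kept. Each deposited peak carries a count in tags and a scaled IDR score of at least 540. The counts were not taken as scaled to library size. How they combine replicate experiments is not given in the sources used here. The Balb/cJ Fos Veh list was empty, and the 9 peaks of Balb/cJ JunB Veh were not used. Library depth is unknown, and the other lists held 463 to 41573 peaks.

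Peaks were merged and looked up with a 1 bp overlap in Python 3.11.15 (pandas 2.3.3, pysam 0.24.0). Motifs were searched as exact words in the 200 bp around the peak centre on GRCm38 (RefSeq), and transcript starts were those of the GENCODE vM21 basic set. The code was tested on simulated data. The members and gene lists were chosen with earlier results of these data known. Motif classes, variants of TGATGCAA, the 75 loci and the X chromosome were taken up after the values were seen. Named loci were the 10 highest ATF3 counts, the 5 highest with CEBPa and TGATGCAA, the 3 highest without partners, within 1 kb of a TSS, and with ATF3 in every list but no Jun or JunD, and 3 genes per gene list. Other genes of the stress response list were named after their values were seen.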

Additional observations from a re-analysis of the deposited data

How the results depend on the processing

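Alternatives to the 1 bp overlap, the lists, the motif search and the TSS gave 148 values. Of the 141 differences among them 127 kept their direction and side of the test, and the other 7 were counts of loci. The number of ATF3-only loci fell from 5931 to 2728 with the 3 defining lists at equal length, and 2965 is the strongest 50% by construction. The PU.1 difference from Jun-only loci no longer passed, at -0.7 points with 50% reciprocal overlap, -0.7 with centres within 100 bp and -2.6 over 3 kb from any TSS. It was larger and passed at -11.9 with an IDR of 0.01, -9.8 in the strongest 50% and -5.4 with lists of equal length. The PPARg difference from Jun-only loci passed the test as 3.7, 4.3, 4.0 and 5.3 points with reciprocal overlap, centres within 100 bp, lists of equal length and loci over 3 kb from a TSS, but turned to -3.8 with an IDR of 0.01. The TRE difference from Jun-only loci was -1.0 in the central 100 bp and 0.9 with 1 mismatch. That from JunD-only loci was 1.1 in the strongest 50%, -0.3 with an IDR of 0.01, -1.5 with lists of equal length and -1.3 over 3 kb from a TSS. The causes were not tested. All computed alternatives kept the direction and call for CEBPa, the composite motif, the ATF3 shares, the loci lacking Jun and JunD, and the TSS share, but not the size. With lists of equal length the CEBPa differences from Jun-only and JunD-only loci were 24.8 and 25.6 points, those of the composite motif 14.3 and 14.7, and the ATF3 differences from 3-monomer loci -20.8 after KLA, -20.1 in Balb/cJ and -13.2 in PPARgKO. With 1 mismatch the composite differences were 28.3 and 33.6 points, and 18.1 between loci with and without CEBPa. In the strongest 50% the CEBPa difference from JunD-only loci was 23.2 points. No paired analysis was possible because each condition has 1 list with its replicates combined. Depth limits any reading of a missing peak, above all in the PPARgKO Jun list.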
